A study of Mus musculus with 16 samples.

Results

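The genes described here are 48 interferon stimulated antiviral genes that lie outside the IFIT, OAS, GBP and IRG families. They were chosen by symbol, and 48 of 49 listed symbols had a row among 22287 genes in the count table, while no row carried the symbol Mnda. The libraries came from bone marrow derived macrophages (BMDMs) of C57BL/6J mice aged 8 weeks. They were differentiated for 7 days with GM-CSF (GM, 20 ng/ml) or M-CSF (M, 50 ng/ml). The study seeded GM cultures more densely than M cultures, so growth factor, its dose and seeding density cannot be told apart. The cells were grown on dishes treated for attachment (TC) or on untreated dishes (noTC). They were taken at steady state or after 3 h with 100 ng/ml lipopolysaccharide (LPS), the bacterial agonist of TLR4. The 8 groups (GM and M on each dish, without and with LPS, written as GM-TC or M-noTC-LPS) held 2 libraries each, 16 in all, and no group carried a genetic change. Each culture was a bulk population, in which fewer cells of a type and less RNA per cell cannot be told apart.

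Interferon stimulated genes are switched on when type I interferon binds its receptor on the cell surface. The receptor's kinases activate transcription factors, among them STAT2, which joins IRF9 in a complex that binds a DNA element in the promoters of these genes. Macrophages make interferon beta within hours of LPS contact through the adaptor TRIF and the factor IRF3, so that the released interferon acts back on the same cells. The products block viral entry, translation, replication and budding, sense foreign nucleic acids, or tune the signalling itself.

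The total count per library ranged from 17527806 to 31458368, and 3 counts, the floor used here, corresponded to between 0.0697 and 0.174 CPM (counts scaled to a common library total). CPM were scaled by TMM factors, from 1.11 to 1.39 before LPS and from 0.778 to 0.842 after it. All 48 genes passed the filter on low counts, as did 12514 of the 16756 genes with a count. The 7 macrophage markers (Adgre1, Csf1r, Cd68, Itgam, Lyz2, Mertk and Fcgr1) were over the floor in every group and summed to between 20000 and 46600 CPM. Lyz2 carried most of that sum, with group means from 15400 to 41300 CPM. On TC dishes before LPS, Adgre1, Csf1r, Cd68 and Fcgr1 were higher in M, and Itgam, Lyz2 and Mertk were higher in GM. Adgre1 stood at 221 CPM in GM-TC and 824 CPM in M-TC. GM-TC was the group whose libraries differed most, with a chi-square per gene of 14.4 against 1.96 to 5.87 in the other groups. The study describes the libraries of a group as biological replicates, and since the labels do not name the animals, the p-values measure only the spread between these samples.

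The promoters of the members were read first. The members were listed as interferon stimulated genes, so the share with an interferon element is not independent of that choice. The part of the motifs in the comparisons that follow was not tested. RefSeq windows of 300 bases (250 before and 50 after the start, GRCm38.p6) were found for 38 of the 48 genes. The interferon stimulated response element, searched as GAAA, any 2 bases, then GAAA on both strands, was present in 16 of 38 windows (42.1%), against 3.99% of 27025 genes with a window. The gamma activated site, searched as TTCNNNGAA, was present in 5 of 38 (13.2%), against 9.55% of all genes. The NF-kB motif (GGG, any 2 bases, then TTTCC) was present in 0 of 38, against 1.89%. At so low a background 38 windows cannot show a lack of that motif. Of the 24 matches to the interferon stimulated response element, 13 began within 150 bases before the start and 9 after it. A match is a description of the letters and not a bound site.

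Stretches of 50 bases around one match each are shown for 7 genes with a match, 5′ to 3′ on the strand of the gene, with the match in capitals. Rsad2 and Bst2 are both effectors, and the others come from different roles (Slfn8 for the schlafens and Ddx60 for the sensors). In Isg15 the match shown, at chr4:156200861-156200910 on the minus strand, is the middle one of 3 overlapping matches. Rsad2 lies at chr12:26456543-26456592 (minus), Ifi205 at chr1:174031860-174031909 (minus), Ddx60 at chr8:61928014-61928063 (plus), Bst2 at chr8:71537573-71537622 (minus), Stat2 at chr10:128270256-128270305 (plus) and Slfn8 at chr11:83020829-83020878 (minus). In Rsad2, Stat2 and Slfn8 the match runs on the opposite strand, so the capitals begin and end with TTTC. In Bst2 it overlaps another match to the same element and a TTCNNNGAA match.
Isg15: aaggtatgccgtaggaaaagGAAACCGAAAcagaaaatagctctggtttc
Rsad2: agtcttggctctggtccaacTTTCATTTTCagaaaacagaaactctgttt
Ifi205: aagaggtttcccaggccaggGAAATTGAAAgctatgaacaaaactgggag
Ddx60: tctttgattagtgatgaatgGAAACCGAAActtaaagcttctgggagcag
Bst2: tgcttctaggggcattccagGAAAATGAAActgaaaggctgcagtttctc
Stat2: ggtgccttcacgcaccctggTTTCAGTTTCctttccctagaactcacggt
Slfn8: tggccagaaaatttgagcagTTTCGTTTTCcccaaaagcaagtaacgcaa

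Most members stood in one order across the study: lowest in GM at steady state, then M at steady state, then GM after LPS, and highest in M after LPS. All 4 GM libraries at steady state were below all 4 M libraries at steady state in 45 of 48 members, against 28% of all tested genes. All 4 M libraries at steady state were below all 4 GM libraries after LPS in 46 members, against 40.2% of all tested genes. All 4 GM libraries after LPS were below all 4 M libraries after LPS in 45 members, against 30.7%. The whole order held in 41 of 48 members and in 4.25% of all tested genes. The 7 members outside it were Isg15, Trim25, Bst2, Ifitm3, Ifi205, Slfn1 and Slfn2. Together the 48 genes took between 0.291% and 0.316% of the counts in GM at steady state and between 0.978% and 1% in M at steady state. After LPS they took between 2.96% and 3.16% in GM and between 5.16% and 5.42% in M.

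**Figure D1:**
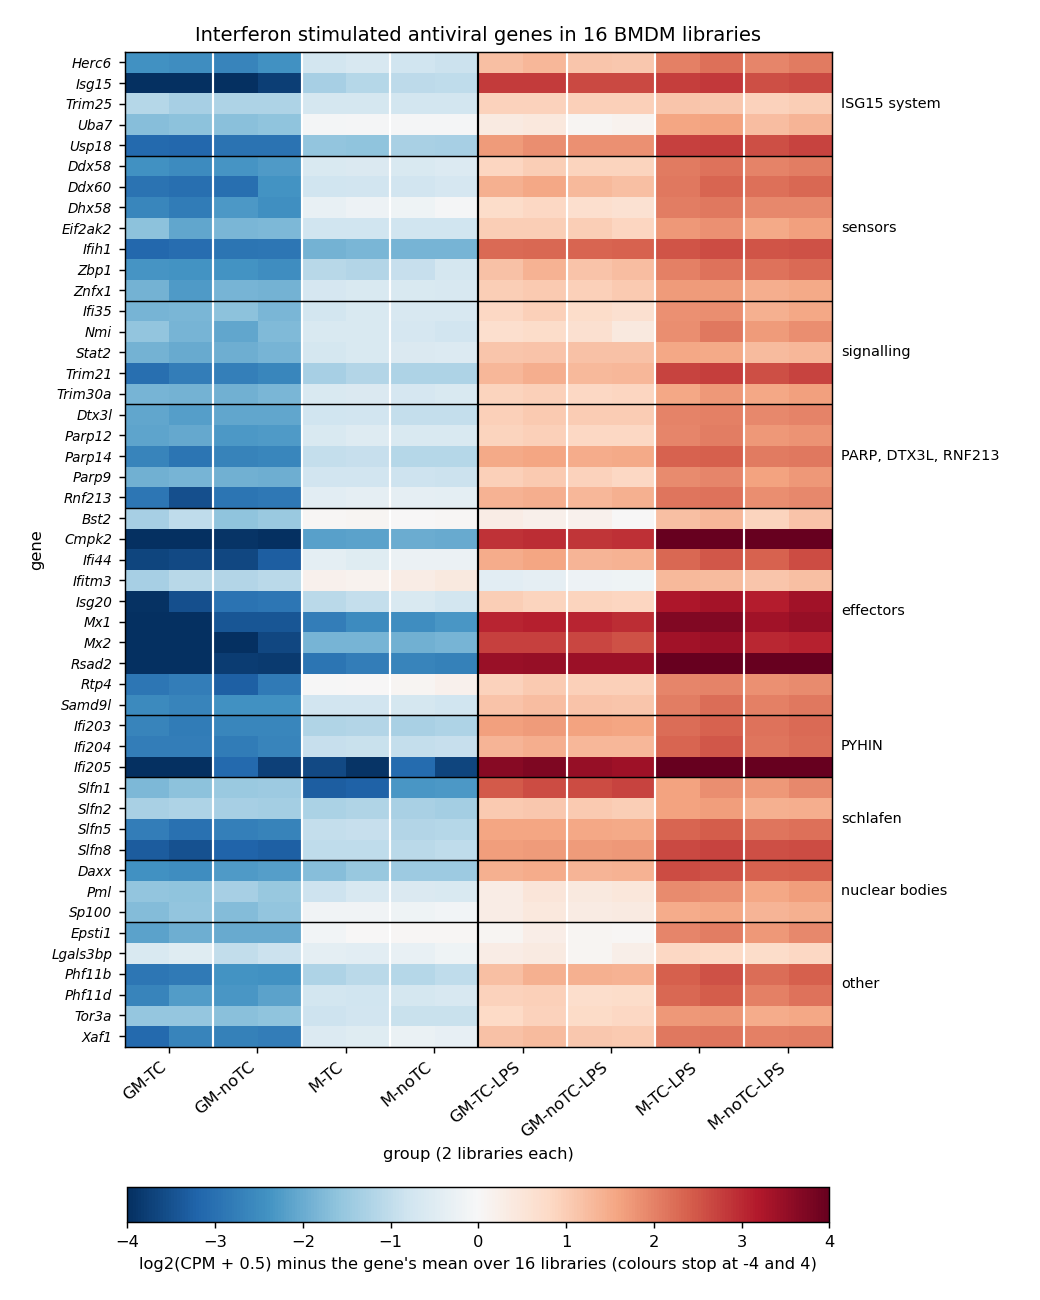
Level of the 48 genes (rows, grouped by role) in the 16 libraries (columns, 2 per group) as log2(CPM + 0.5) minus each gene's own mean, with blue for low and red for high. The left block (steady state) is blue in GM and pale in M, the right block (after LPS) is red and deeper in M than in GM, and Slfn1, Isg15 and Ifitm3 break that order.

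Upon LPS challenge every one of the 48 members rose with both growth factors and on both dishes. The background was 32.8% (TC) and 33.6% (noTC) of all tested genes called higher in GM and 37.6% and 36.4% in M, with 34.2%, 34%, 36.4% and 35.9% called lower, and 25% were called higher in all 4. The median log2 fold change of the members was 3.77 (TC) and 3.65 (noTC) in GM and 2.84 and 2.78 in M, while the median of all tested genes lay between -0.0508 and -0.00613. In the same order, the rise exceeded 2-fold in 46, 47, 48 and 46 members, with 13.5%, 13.3%, 17.4% and 16% of all tested genes past that fold upward at an unadjusted p under 0.05. Scaling by library size alone moved the median of all genes to between -0.834 and -0.53 in these comparisons. On that scale 48, 48, 48 and 47 members were still called higher, the exception being Ifitm3 in M-noTC. Fold changes below come from edgeR's quasi-likelihood test with Benjamini-Hochberg adjustment over the 12514 genes, and a gene was called at an adjusted p under 0.05.

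The ISG15 system attaches a ubiquitin-like protein to viral and host proteins. Isg15, which encodes the modifier itself, stood at 1.46 and 2.34 CPM in the GM-TC libraries and at 411 and 416 CPM in GM-TC-LPS, with a log2 fold change of 7.73 (SE 0.108, adjusted p = 6.7e-24). In M-TC it stood at 23.1 and 26.4 CPM and in M-TC-LPS at 409 and 421 CPM, with a log2 fold change of 4.07 (SE 0.0756). The GM and M libraries on TC dishes therefore did not overlap before LPS and overlapped after it. On noTC dishes Isg15 rose from 3.10 and 3.88 CPM to 375 and 371 CPM in GM and from 28.3 and 28.8 CPM to 353 and 374 CPM in M. Usp18, the protease that removes ISG15 and restrains the interferon receptor, rose from 12.8 and 12.6 CPM in GM-TC to 372 and 418 CPM, and from 37.9 and 37.1 CPM in M-TC to 760 and 788 CPM. Its log2 fold change was 4.96 (SE 0.0737) in GM-TC and 4.37 (SE 0.0657) in M-TC. The noTC libraries of Usp18 went from 14.5 and 14.4 CPM to 405 and 410 CPM in GM, and from 46.0 and 45.1 CPM to 682 and 749 CPM in M. Uba7, the activating enzyme, Herc6, the main ligase for ISG15 in mice, and Trim25, a ligase that acts on RIG-I, rose by between 1.34 and 3.75 on the log2 scale over the 4 comparisons.

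The sensors of foreign RNA and DNA rose by between 2.06 and 5.40 on the log2 scale. Ifih1, which encodes the long double-stranded RNA sensor MDA5, rose from 40.5 and 42.6 CPM in GM-TC to 1740 and 1769 CPM, with a log2 fold change of 5.40 (SE 0.0594, adjusted p = 1.7e-25). In M-TC it rose from 95.3 and 100.4 CPM to 2033 and 2176 CPM, with a log2 fold change of 4.43. This was the steepest rise among the 7 sensors in every comparison. In GM-noTC Ifih1 stood at 46.3 and 48.2 CPM before and 1791 and 1851 CPM after LPS, and in M-noTC at 98.5 and 97.4 CPM and 2048 and 2097 CPM. Ddx58, which encodes RIG-I, rose from 41.1 and 38.4 CPM in GM-TC to 402 and 446 CPM, and from 146 and 148 CPM in M-TC to 946 and 1013 CPM. On noTC dishes Ddx58 rose from 42.9 and 45.7 CPM to 411 and 418 CPM in GM and from 146 and 154 CPM to 883 and 917 CPM in M. All M libraries of Ddx58 were above all GM libraries of the same treatment. Zbp1, a Z-form nucleic acid sensor that can start necroptosis, rose from 8.73 and 8.58 CPM to 107 and 124 CPM in GM-TC, and from 21.5 and 20.9 CPM to 194 and 213 CPM in M-TC. The noTC libraries of Zbp1 went from 8.56 and 8.02 CPM to 106 and 111 CPM in GM, and from 24.9 and 29.2 CPM to 213 and 230.5 CPM in M. For Zbp1 too the GM and M libraries of the same treatment did not overlap. Eif2ak2, which encodes the translation-blocking kinase PKR, rose less, from 67.9 and 50.7 CPM to 429 in both libraries of GM-TC-LPS, with a log2 fold change of 2.86 (SE 0.0856). In M-TC it rose from 124 CPM in both libraries to 715 and 759 CPM. In GM-noTC Eif2ak2 stood at 59.9 and 61.8 CPM before and 422 and 395 CPM after LPS, and in M-noTC at 123 and 124 CPM and 616 and 667 CPM. Dhx58 (LGP2), the helicase Ddx60 and the RNA-binding protein Znfx1 completed the group, with log2 fold changes between 2.06 and 4.62.

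Among the members that carry or tune the signal, Stat2, a subunit of the interferon response complex, rose from 71.9 and 65.8 CPM in GM-TC to 580 and 594 CPM. In M-TC it rose from 166 and 176 CPM to 786 and 776 CPM, with log2 fold changes of 3.09 (SE 0.0582) in GM-TC and 2.19 (SE 0.0545) in M-TC. On noTC dishes Stat2 rose from 69.0 and 73.5 CPM to 608 and 606 CPM in GM and from 179 and 184 CPM to 646 and 684 CPM in M. Trim21, a cytosolic antibody receptor, rose the most of this group, by between 3.88 and 4.33 on the log2 scale. Nmi, its binding partner Ifi35, and Trim30a rose by between 2.16 and 2.81 over the 4 comparisons. The ADP-ribosyltransferases Parp9, Parp12 and Parp14, the ligase Dtx3l that works with Parp9, and the giant ubiquitin ligase Rnf213 rose by at least 2.27 in each comparison.

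The effectors held both steep and shallow responses. Rsad2, which encodes viperin, an enzyme that makes a chain-terminating nucleotide, stood at 12.7 and 11.1 CPM in GM-TC and at 8346 and 8491 CPM in GM-TC-LPS, with a log2 fold change of 9.47 (SE 0.0855, adjusted p = 7.9e-27). In M-TC it stood at 98.4 and 110.9 CPM and in M-TC-LPS at 13040 and 14540 CPM, with a log2 fold change of 7.04. The noTC libraries of Rsad2 went from 54.3 and 53.1 CPM to 8187 and 8071 CPM in GM, and from 120.2 and 115 CPM to 13460 and 13870 CPM in M. Cmpk2, a mitochondrial nucleotide kinase whose gene is next to Rsad2 in the RefSeq order of protein-coding genes, rose from 4.85 and 5.88 CPM to 2728 and 2875 CPM in GM-TC, and from 82.3 and 84.3 CPM to 5905 and 6568 CPM in M-TC. Per kilobase of exon, Rsad2 was the highest of the members in all 4 LPS groups, at 1942, 1875, 3181 and 3152 CPM per kilobase. At steady state Ifitm3 held that place in all 4 groups.

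Mx1 and Mx2, dynamin-like GTPases that trap viral nucleoproteins, rose steeply, Mx1 by between 5.85 and 8.00 on the log2 scale. Mx1 rose from 3.79 and 4.03 CPM in GM-TC to 982 and 1031 CPM, and from 16.9 and 20.4 CPM in M-TC to 1527 and 1558 CPM. In GM-noTC Mx1 stood at 10.5 and 10.7 CPM before and 982 and 919 CPM after LPS, and in M-noTC at 20.6 and 23.1 CPM and 1223 and 1318 CPM. In most laboratory mouse strains the Mx1 gene carries a deletion that disables the protein. Isg20, an exonuclease that degrades viral RNA, rose from 0.404 and 0.725 CPM to 26.8 and 25.1 CPM in GM-TC, and from 6.06 and 6.70 CPM to 130 and 140 CPM in M-TC. On noTC dishes Isg20 rose from 1.30 and 1.37 CPM to 25.4 and 24.7 CPM in GM and from 8.59 and 7.94 CPM to 123 and 143 CPM in M. At the low end stood Bst2, which encodes tetherin and holds budding virions at the cell surface. It rose from 23.4 and 29.0 CPM to 72.9 and 68.3 CPM in GM-TC, and from 61.4 and 62.8 CPM to 136 and 149 CPM in M-TC. The noTC libraries of Bst2 went from 19.2 and 20.7 CPM to 66.3 and 59.6 CPM in GM, and from 59.0 and 60.5 CPM to 109.5 and 129.5 CPM in M. All LPS libraries of Bst2 were above the steady state libraries of the same growth factor. Ifitm3, which blocks fusion of virions with endosomes, rose from 245 and 287 CPM to 468 and 484 CPM in GM-TC, with a log2 fold change of 0.84 (SE 0.0622, adjusted p = 6.9e-11). In M-TC it rose from 703 and 688 CPM to 1515 and 1496 CPM, with a log2 fold change of 1.11 (SE 0.0612). In GM-noTC Ifitm3 stood at 275 and 293 CPM before and 539 and 552 CPM after LPS, and in M-noTC at 766 and 821 CPM and 1341 and 1437 CPM. For Bst2 and Ifitm3 the GM libraries after LPS did not lie wholly above the M libraries at steady state. The other effectors, Ifi44, Samd9l and Rtp4, rose by between 1.73 and 5.61.

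The steepest rise of any member, in every comparison except GM-noTC where Rsad2 led, was that of Ifi205, one of the PYHIN genes, whose products bind foreign DNA. It stood at 0.454 and 0.483 CPM in GM-TC and at 527 and 562 CPM in GM-TC-LPS, with a log2 fold change of 10.16 (SE 0.177, adjusted p = 2.6e-22). In M-TC it stood at 2.99 and 2.28 CPM and in M-TC-LPS at 921 and 1016 CPM, with a log2 fold change of 8.52. On noTC dishes Ifi205 rose from 4.36 and 2.70 CPM to 476 and 448 CPM in GM and from 4.55 and 2.83 CPM to 860.5 and 882 CPM in M. Its steady state level in GM-TC was near the floor, so the size of its fold rests on few counts. Ifi203 and Ifi204 rose by between 3.14 and 4.41. The schlafen genes, which restrict translation and T cell growth, rose by between 2.34 and 5.57. Slfn1 rose from 3.64 and 4.07 CPM to 77.9 and 87.2 CPM in GM-TC, and from 0.957 and 1.01 CPM to 43.3 and 51.2 CPM in M-TC, where its rise of 5.57 (SE 0.143) was the steepest of the 4 schlafens. The noTC libraries of Slfn1 went from 4.61 and 4.69 CPM to 86.5 and 91.9 CPM in GM, and from 2.33 and 2.39 CPM to 47.3 and 53.2 CPM in M.

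The nuclear body genes Sp100, Pml and Daxx rose by at least 1.52 on the log2 scale in each comparison. Daxx, a histone chaperone of these bodies, rose from 23.8 and 22.7 CPM to 344 and 362 CPM in GM-TC, and from 39.0 and 45.0 CPM to 786 and 759 CPM in M-TC. In GM-noTC Daxx stood at 26.2 and 27.5 CPM before and 331 and 340 CPM after LPS, and in M-noTC at 46.7 and 46.7 CPM and 666 and 683 CPM. Of the remaining members, Phf11d rose from 8.53 and 11.5 CPM to 107 and 109 CPM in GM-TC, and from 33.5 and 32.4 CPM to 276 and 306 CPM in M-TC. Its log2 fold change was 3.41 (SE 0.0992) in GM-TC and 3.14 (SE 0.0835) in M-TC. On noTC dishes Phf11d rose from 10.8 and 12.5 CPM to 92.5 and 94.4 CPM in GM and from 34.0 and 35.9 CPM to 229 and 256 CPM in M. Lgals3bp, a secreted scavenger receptor protein, had the smallest rise of this last group, 0.86 in GM-TC and 1.22 in M-TC. Xaf1, Epsti1, Phf11b and Tor3a rose by between 1.79 and 4.26.

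**Figure D2:**
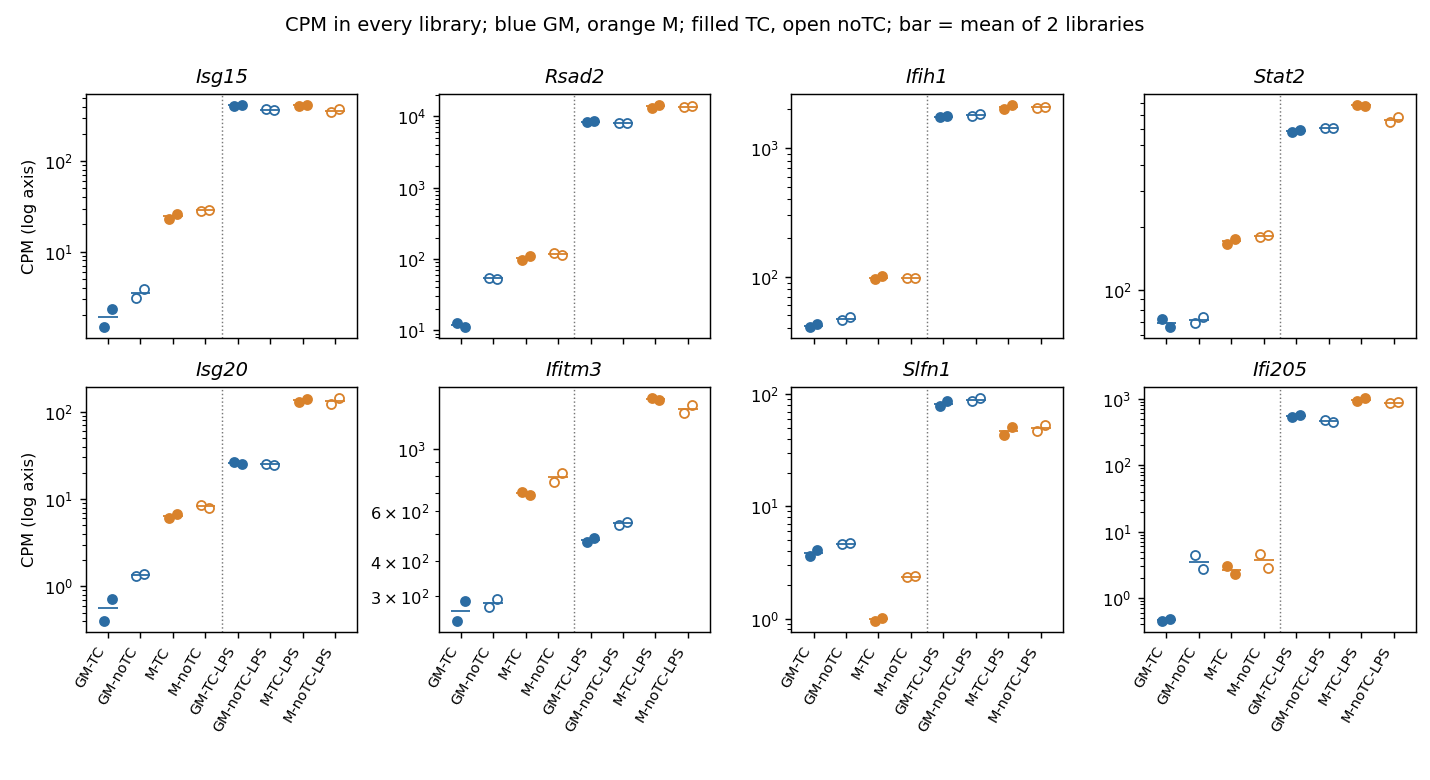
CPM (log axis) of 8 members in every library, with blue for GM, orange for M, filled points for TC, open points for noTC and a bar at the mean of 2 libraries; steady state is left of the dotted line and LPS right of it. Isg15 starts higher in M than in GM and overlaps after LPS, Slfn1 is lower in M throughout, and Rsad2 and Ifi205 of GM before LPS lie several times higher on noTC than on TC dishes.

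At steady state the members were higher in M than in GM on both dishes. On TC dishes 46 of 48 members were higher in M, 1 was lower (Slfn1) and 1 was not called (Slfn2), against a background of 28.9% higher and 32.6% lower. On noTC dishes 45 were higher, 1 was lower (Slfn1) and 2 were not called (Slfn2 and Ifi205), against 30.7% and 31.4%. The median log2 fold change, M against GM, was 1.66 on TC and 1.51 on noTC, beside a median of all genes of -0.0175 and 0. More than 2-fold higher in M were 41 members on TC and 40 on noTC, with 8.73% and 9.37% of all tested genes past that fold in M at an unadjusted p under 0.05.

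The largest difference at steady state on TC dishes was that of Cmpk2, at 4.85 and 5.88 CPM in GM-TC and 82.3 and 84.3 CPM in M-TC, with a log2 fold change of 3.94 (SE 0.0835, adjusted p = 1.7e-20). Isg15 followed with 3.67 (SE 0.131), and Ifi44, a cytoplasmic interferon-induced protein, with 3.60 (SE 0.168). Ifi44 stood at 1.31 and 1.41 CPM in GM-TC and at 17.2 and 15.97 CPM in M-TC. On noTC dishes Ifi44 was again apart, at 1.39 and 1.89 CPM in GM-noTC and 19.5 and 19.4 CPM in M-noTC. Rtp4, a chaperone of receptor transport with antiviral activity, stood at 9.78 and 13.5 CPM in GM-noTC and at 105 and 112 CPM in M-noTC, with a log2 fold change of 3.22 (SE 0.09, adjusted p = 2.4e-18). Each of these genes was named on the condition that its groups did not overlap.

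The sensors and signalling genes differed by less than these genes. Over the 7 sensors the log2 fold change ran from 1.08 to 2.53 on TC and from 1.02 to 2.31 on noTC. Their median was 1.43 on TC and 1.71 on noTC. Ifih1 was 2.35-fold, Ddx58 3.70-fold, Eif2ak2 2.11-fold, Zbp1 2.45-fold and Stat2 2.49-fold higher in M-TC than in GM-TC. On noTC dishes the same genes were 2.07-fold, 3.39-fold, 2.03-fold, 3.28-fold and 2.54-fold higher in M. Ifitm3, the most abundant member per kilobase at steady state, was 2.61-fold higher in M on TC and 2.79-fold on noTC, and Bst2 2.36-fold and 3.00-fold.

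Slfn1 went the other way. It stood at 3.64 and 4.07 CPM in GM-TC and at 0.957 and 1.01 CPM in M-TC, with a log2 fold change of -1.97 (SE 0.221, adjusted p = 8e-08). On noTC dishes it stood at 4.61 and 4.69 CPM in GM-noTC and at 2.33 and 2.39 CPM in M-noTC, with a log2 fold change of -0.97 (SE 0.159, adjusted p = 1.4e-05). Slfn2, its neighbour in the gene order, stood at 223 and 230 CPM in GM-TC and at 225 and 235 CPM in M-TC, where the groups overlapped. The other 2 schlafens were higher in M, Slfn5 by 1.96 and Slfn8 by 2.43 on the log2 scale on TC dishes.

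After LPS the members were still higher in M, by less. On TC dishes 46 were higher, 1 lower (Slfn1) and 1 not called (Isg15), against 32.9% and 33.9% of all tested genes. On noTC dishes 45 were higher, 1 lower (Slfn1) and 2 not called (Isg15 and Trim25), against 32.6% and 33.5%. The median log2 fold change was 0.923 on TC and 0.907 on noTC, beside -0.0284 and -0.019 for all genes. Past 2-fold were 17 and 16 members, with 10.2% and 10.3% of all tested genes past that fold in M. In all 4 comparisons of growth factor 43 members were higher in M, against 16.3% of all tested genes, and Slfn1 was the one member lower in all 4, as were 17.5% of all tested genes.

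Isg20 differed most after LPS. It stood at 26.8 and 25.1 CPM in GM-TC-LPS and at 130 and 140 CPM in M-TC-LPS, with a log2 fold change of 2.38 (SE 0.0796, adjusted p = 6.6e-17). Epsti1, an interferon-induced gene, stood at 55.4 and 63.0 CPM in GM-TC-LPS and at 204 and 221 CPM in M-TC-LPS. Its log2 fold change was 1.84 (SE 0.0719). Ifitm3 followed with 1.66 (SE 0.0623) on TC dishes, and Phf11d with 1.37 (SE 0.0767) on noTC dishes. Isg15 did not differ detectably after LPS, with a log2 difference of 0.01 (SE 0.0625, adjusted p = 0.94) on TC and -0.04 (SE 0.0627, adjusted p = 0.63) on noTC. The 95% interval of that difference ran from -0.117 to 0.128 on TC dishes. Slfn1 stayed lower in M, by 0.81 on TC (adjusted p = 7e-09) and 0.83 on noTC (adjusted p = 3.8e-09) on the log2 scale.

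Markers of other cells differed between GM and M as well. The 5 conventional dendritic cell markers summed to between 37.8 and 47.3 CPM in GM at steady state and between 0.917 and 1.35 CPM in M. After LPS they summed to between 31.4 and 43.1 CPM in GM and between 2.67 and 3.85 CPM in M. Clec9a (31.5 CPM in GM-TC, 0.248 in M-TC) and Dpp4 carried most of the sum in GM, while Flt3 was at most 0.41 CPM in any group and Xcr1 after LPS stood at 2.1 CPM in GM-TC-LPS and 2.14 CPM in M-TC-LPS. The 8 neutrophil markers summed to between 662 and 962 CPM in GM and between 11.2 and 17.5 CPM in M over both treatments, with Mmp8 alone at 720 CPM in GM-TC and 11.5 CPM in M-TC. S100a8, S100a9 and Ltf reached 8.55, 10.6 and 4.76 CPM in GM and at most 0.589, 0.256 and 0.125 CPM in M, while Ly6g and Retnlg were at most 0.129 and 0.0723 CPM in any group. The 6 plasmacytoid dendritic cell markers, which mark the cells known for making most type I interferon, summed to at most 4.41 CPM, with Siglech at most 0.176 CPM. The part of these cells in the growth factor comparison was not tested.

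**Figure D3:**
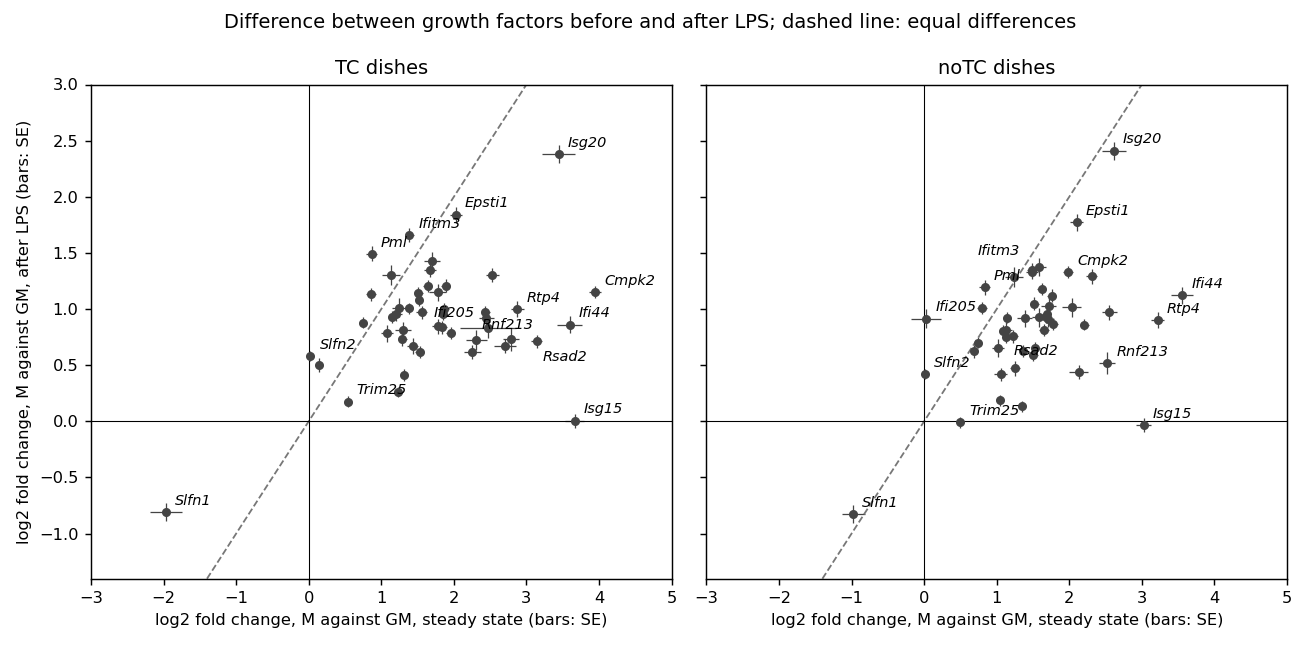
Log2 fold change of each of the 48 members, M against GM, at steady state (x) and after LPS (y), on TC dishes (left) and noTC dishes (right), with SE bars and a dashed line where both are equal. Most points lie right of the line, with Isg15 at 0.01 and -0.04 on the y axis, while Slfn1 lies below 0 on both axes and Pml and Slfn2 lie above the line.

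Most members responded to LPS less steeply in M than in GM, which was tested as an interaction. On TC dishes 36 members had a smaller rise in M than in GM, 6 had a larger rise and 6 were not called, against 17.8% smaller and 23.3% larger among all tested genes. On noTC dishes 36 had a smaller rise, 3 a larger rise and 9 were not called, against 16.9% and 19.3%. The median difference of the log2 responses was -0.656 on TC and -0.638 on noTC, beside 0.0415 and 0.0204 for all genes. Past 2-fold at an unadjusted p were 1 larger and 16 smaller on TC (6.59% and 7.35% of all tested genes), and 0 larger and 10 smaller on noTC (5.51% and 5.99%). On both dishes 33 members had a smaller rise in M, against 11.9% of all tested genes, and 2 had a larger rise (Slfn2 and Pml), against 15.7%.

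Isg15 showed the largest gap, a response smaller in M by 3.66 (SE 0.15, adjusted p = 2.3e-14) on TC and by 3.06 (SE 0.128, adjusted p = 5e-14) on noTC. Cmpk2 followed on TC dishes, where its log2 response fell by 2.79 (SE 0.102) from GM to M. Ifi44 rose by 5.61 in GM-TC but by 2.87 in M-TC on the log2 scale, and by 5.18 in GM-noTC but by 2.74 in M-noTC. Rtp4 had a log2 response of 4.04 in GM-noTC and 1.73 in M-noTC. All 7 sensors and all 5 genes of the ISG15 system had a smaller rise in M on both dishes.

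The exceptions were few. Slfn1 rose by 4.41 in GM-TC but by 5.57 in M-TC on the log2 scale, a difference of 1.16 (SE 0.241, adjusted p = 0.0005), and on noTC dishes the difference was 0.15 (adjusted p = 0.56). Pml, the scaffold of nuclear bodies, stood at 32.4 and 31.7 CPM in GM-TC and at 121 and 136 CPM in GM-TC-LPS. In M-TC it stood at 55.2 and 61.8 CPM and in M-TC-LPS at 363 and 358 CPM, so that its response was larger in M by 0.62 (SE 0.102, adjusted p = 3.8e-05), and by 0.36 (adjusted p = 0.0065) on noTC. Slfn2 stood at 1136 and 1157 CPM in GM-TC-LPS and at 1675 and 1753 CPM in M-TC-LPS from nearly equal levels before, a difference in response of 0.56 on TC and 0.42 on noTC. Ifitm3 and Daxx had a larger rise in M on TC dishes by 0.28 and 0.27 (adjusted p = 0.014 and 0.018), but with scaling by library size alone both differences turned negative, to -0.07 each. Lgals3bp had a larger rise in M on TC dishes by 0.36. Ifi205 had a larger rise in M on noTC dishes by 0.89 (adjusted p = 0.0032) and a smaller one on TC dishes by 1.64 (adjusted p = 0.0027). When the share of other libraries' reads described with the dishes was subtracted, the value on noTC turned to -0.06 and the value on TC was -1.64 with an adjusted p of 0.07, so that neither was called.

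**Figure D4:**
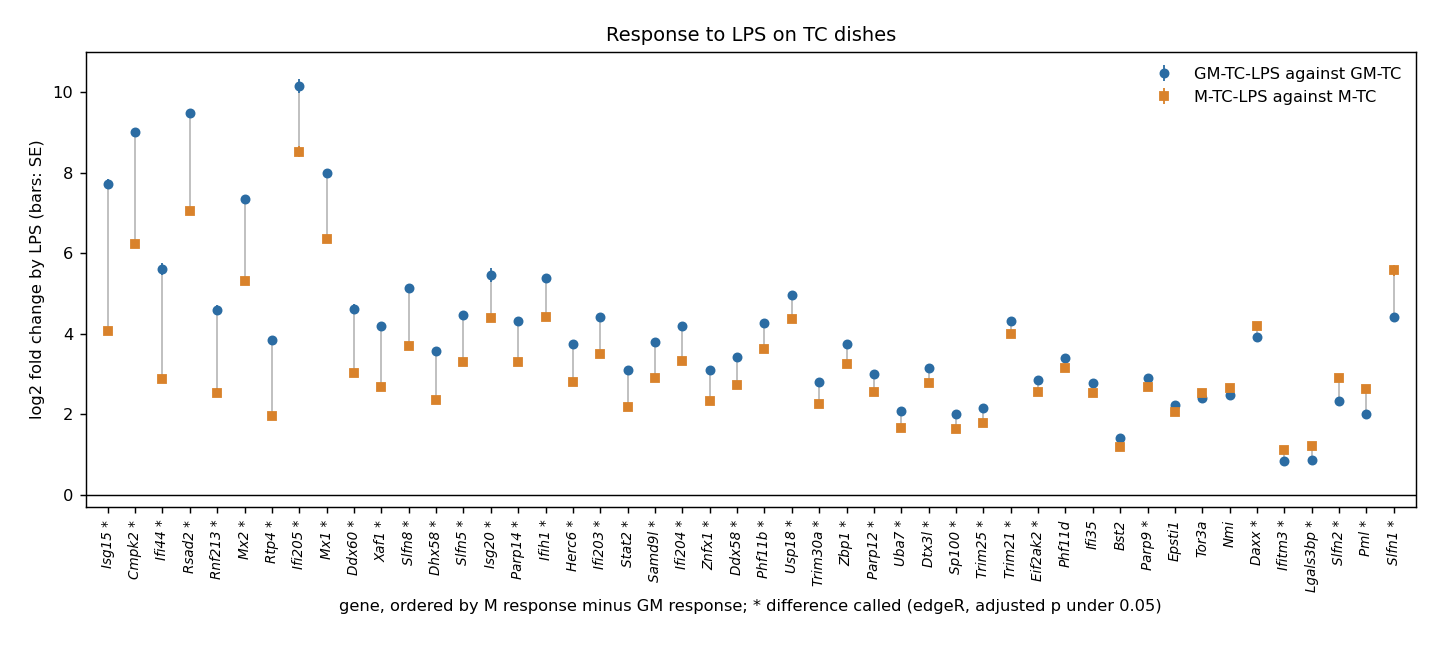
Log2 fold change by LPS (y, with SE bars) of each member in GM (blue circles) and M (orange squares) on TC dishes, ordered by the difference of both responses, with an asterisk where edgeR called the difference at an adjusted p under 0.05. The blue circle lies above the orange square from Isg15 at 7.73 and 4.07 through to Epsti1, and below it from Tor3a to Slfn1 at 4.41 and 5.57.

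The members differed less between dishes than between growth factors or treatments. In GM at steady state 8 members were higher on noTC dishes and 3 lower, against 4.69% higher and 2.85% lower among all tested genes, and the median log2 fold change was 0.14 beside 0 for all genes. Past 2-fold at an unadjusted p under 0.05 were 5 higher and 0 lower members, against 1.61% and 1.13%. Ifi205 stood at 0.454 and 0.483 CPM in GM-TC and at 4.36 and 2.70 CPM in GM-noTC, with a log2 fold change of 2.88 (SE 0.358, adjusted p = 1.1e-05). Rsad2 stood at 12.7 and 11.1 CPM in GM-TC and at 54.3 and 53.1 CPM in GM-noTC, with a log2 fold change of 2.18 (SE 0.0792, adjusted p = 4.2e-14). Cmpk2 stood at 4.85 and 5.88 CPM in GM-TC and at 24.0 and 23.0 CPM in GM-noTC, with a log2 fold change of 2.12 (SE 0.0934). These genes were chosen among called members whose TC and noTC libraries did not overlap. Mx1 (1.43), Isg20 (1.19), Isg15 (0.85), Phf11b (0.48) and Dhx58 (0.36) were the other members called higher. Isg20, like Ifi205, was near the floor in GM-TC, so the size of its fold rests on few counts. Lower on noTC were Bst2 (-0.40), Lgals3bp (-0.38) and Parp12 (-0.21).

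In Rsad2, Cmpk2, Isg15 and Ifi205, among the 8 higher members, the difference was close to a fixed share of the gene's level in the other libraries. In CPM per library size, Rsad2 rose from a mean of 13.3 in GM-TC to 60.5 in GM-noTC, and the difference was 0.664% of its mean in the 8 LPS libraries and the 2 M-noTC libraries. For Cmpk2 the difference was 0.673% of that mean, for Isg15 0.698% and for Ifi205 0.752%. Mx1 stood at 0.977%, above the range of the genes outside the members given below. The other 3 higher members lay further above, with 1.63% for Isg20, 2.2% for Dhx58 and 2.23% for Phf11b. Outside the members, 14 genes were under 1 CPM in GM-TC and averaged at least 100 CPM in those libraries, and their differences had a median of 0.671% (range 0.39% to 0.907%). With 0.671% of each gene's mean in those libraries subtracted from GM-noTC, 1 of the 8 members remained called higher, Mx1 at 0.62 (adjusted p = 0.011), the 3 lower members remained lower, and the median of the members turned to -0.0108. Rsad2 then had a log2 fold change of -0.06 (adjusted p = 0.82), Cmpk2 of 0.00021 and Isg15 of 0.018. Isg20 (0.80), Ifi205 (0.73), Phf11b (0.36) and Dhx58 (0.27) kept part of their log2 difference but were no longer called, with adjusted p between 0.13 and 0.71. Whether reads of other libraries entered the GM-noTC libraries was not tested. Without GM-TC replicate 1 the count of higher members was 13 and without GM-noTC replicate 2 it was 4, and the count of lower members was 1 without GM-TC replicate 2 or GM-noTC replicate 1.

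**Figure D5:**
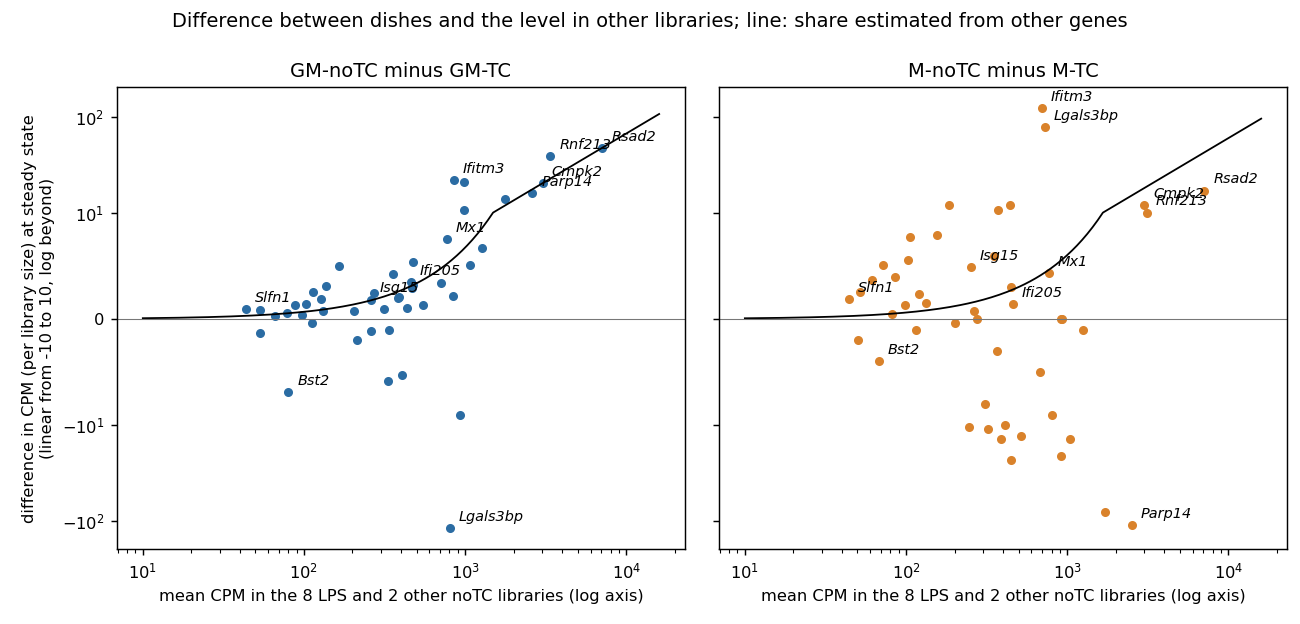
Difference in mean CPM (per library size) between noTC and TC dishes at steady state (y, linear from -10 to 10 and log beyond) against the mean CPM in the 8 LPS libraries and the 2 noTC libraries of the other growth factor (x, log axis), for the 48 members in GM (left) and M (right). The line marks the share of that mean estimated from other genes, 0.671% in GM and 0.6% in M. In GM the points of Rsad2, Cmpk2, Ifi205 and Isg15 lie on or near it. Mx1 lies above it, as do Isg20, Dhx58 and Phf11b, which are not marked by name.

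In M at steady state 9 members were higher on noTC dishes and 3 lower, near the background of 16.1% and 11.1% of all tested genes. Past 2-fold at an unadjusted p were 1 higher and 0 lower, against 2.65% and 1.66%. Slfn1 was the one member past 2-fold, at 0.957 and 1.01 CPM in M-TC and at 2.33 and 2.39 CPM in M-noTC, with a log2 fold change of 1.26 (SE 0.227, adjusted p = 0.00021). Isg20 (0.37) and Zbp1 (0.36) followed. Lower on noTC were Slfn5 (-0.24), Parp14 (-0.22) and Dtx3l (-0.18). With 0.6% of the level in the other libraries subtracted from M-noTC, Slfn1 stayed higher at 1.14 (adjusted p = 0.00077), and Rsad2 went from 0.17 higher (adjusted p = 0.042) to 0.27 lower on the log2 scale (adjusted p = 0.0035). The genes behind that share ranged from 0.0084% to 0.845%. For Rsad2 the unsubtracted difference was 0.234% of its mean in the other libraries, less than the 0.6% subtracted. Its lower value after subtraction therefore follows from the size of the share taken off. The unsubtracted difference was 0.398% for Cmpk2, 0.312% for Ifi205 and 1.96% for Isg15. Without M-TC replicate 1 the count of members higher was 3, without M-noTC replicate 1 it was 5 and without M-noTC replicate 2 it was 4. The count of lower members was 1 without M-TC replicate 2 or M-noTC replicate 2.

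After LPS the dishes differed little in GM. No member was higher on noTC dishes and 1 was lower, against 2.08% and 0.727% of all tested genes, while DESeq2 called 1 member higher. At an unadjusted p under 0.05 edgeR gave 1 higher and 11 lower members, of which 0 passed 2-fold in either direction, against 0.559% and 0.599%. The lower member was Uba7, at 111 and 116 CPM in GM-TC-LPS and at 90.4 and 94.5 CPM in GM-noTC-LPS, with a log2 fold change of -0.29 (SE 0.0568, adjusted p = 0.0042). Leaving out GM-TC-LPS replicate 2 or GM-noTC-LPS replicate 1 ended this call.

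In M after LPS the members leaned lower on noTC dishes. Of 48 members 19 were lower and 1 was higher, against 12.9% and 10.4% of all tested genes, and the median log2 fold change was -0.15 beside -0.000216 for all genes. Ifi35, a partner of Nmi, stood at 177 and 181 CPM in M-TC-LPS and at 134 and 147 CPM in M-noTC-LPS, with a log2 fold change of -0.35 (SE 0.0642, adjusted p = 0.00039). Mx2 stood at 412 and 427 CPM in M-TC-LPS and at 323 and 339 CPM in M-noTC-LPS, with a log2 fold change of -0.34 (SE 0.0614). Uba7 stood at 258 and 264 CPM in M-TC-LPS and at 200 and 218 CPM in M-noTC-LPS, with a log2 fold change of -0.32 (SE 0.0538). Lack of overlap between the groups was a condition for naming these genes. Past 2-fold were 0 members in either direction, against 1.83% higher and 0.999% lower of all tested genes at an unadjusted p. The one higher member was Cmpk2, at 5905 and 6568 CPM in M-TC-LPS and at 6828 and 6987 CPM in M-noTC-LPS, with a log2 fold change of 0.15 (adjusted p = 0.047). Without M-noTC-LPS replicate 1 the count of lower members was 8, without M-TC-LPS replicate 2 it was 12, and with scaling by library size alone it was 11.

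The response to LPS was smaller on noTC dishes in 5 members in GM and 12 in M, and larger in none by edgeR on all 16 libraries with TMM scaling. The background was 0.591% smaller and 0.192% larger in GM, and 7.48% smaller and 3.11% larger in M. At an unadjusted p under 0.05, 1 member had a larger response in GM and 0 in M, and DESeq2 called 0 larger in both. Past 2-fold at an unadjusted p were 5 smaller in GM and 1 in M, against 1.01% and 1.45%, and 0 larger, against 0.535% and 1.11%. By adjusted p the 5 members in GM were Ifi205 (-3.12), Rsad2 (-2.23), Cmpk2 (-2.15), Mx1 (-1.51) and Isg15 (-0.997), genes with the excess at steady state given above. The 5 past 2-fold held Isg20 (-1.24, adjusted p = 0.098) in place of Isg15, and the value of Isg20 rests on few counts in GM-TC. With that share subtracted 0 were called, with Ifi205 at -0.96 and Mx1 at -0.70, and without GM-TC replicate 1 the count was 11. In M the largest were Slfn1 (-1.17), Mx1 (-0.51) and Pml (-0.41). With the share subtracted 9 members were called in M, Slfn1 at -1.05 and Pml at -0.40 among them, while Mx1 at -0.28 (adjusted p = 0.1) was not. The count in M was 3 without M-TC replicate 1, 6 without M-noTC replicate 1, 7 without M-noTC replicate 2, 5 without M-noTC-LPS replicate 1 and 4 with scaling by library size alone. A larger response was called in 1 member in M with scaling by library size alone or with only the libraries of that comparison, and in 1 member in GM without GM-TC replicate 1. The 8 muscle genes, such as Myh6, summed to between 23 and 62.6 CPM before LPS on TC dishes and to at most 0.813 CPM in any other group. Their part in the comparisons of dishes was not tested.

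The genes upstream of the members were read from lists of the interferon and LPS pathways. Of 10 interferon ligands only Ifnb1, which encodes interferon beta, passed the filter. Its mean was 6.80 CPM (SD 0.620, n = 2) in GM-TC-LPS, 9.09 (SD 0.341) in GM-noTC-LPS, 6.71 (SD 0.786) in M-TC-LPS and 15.1 (SD 0.984) in M-noTC-LPS. At steady state all 4 groups averaged less than the floor of 3 counts per library, so its level after LPS was at least 49.9-fold, 78.0-fold, 57.9-fold and 177-fold higher. On TC dishes Ifnb1 did not differ detectably between GM and M after LPS (log2 difference -0.02), and on noTC dishes it was 0.73 higher in M. Between the dishes it was 1.17 higher in M-noTC-LPS than in M-TC-LPS.

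The transcription factors Irf7 and Irf9 were higher in M at steady state and higher after LPS. Irf7, the interferon-induced amplifier of interferon production, had a mean of 4.02 CPM (SD 1.26) in GM-TC, 73.7 (SD 7.18) in M-TC, 251 (SD 17.7) in GM-TC-LPS and 880 (SD 19.8) in M-TC-LPS. Irf9, the DNA-binding part of the interferon response complex, rose by 1.96 in GM-TC and 0.94 in M-TC on the log2 scale. Of the 8 listed STAT and IRF genes, the LPS response on TC dishes was lower in M in 5 and higher in 3. The background was 17.8% lower and 23.3% higher among all tested genes. On noTC dishes it was also lower in 5 and higher in 3, against 16.9% and 19.3%. In GM-TC 5 of 7 interferon receptor and JAK genes were higher after LPS and 1 lower, against 32.8% and 34.2% of all tested genes. Of 8 genes of the LPS to TRIF arm 5 were higher and 2 lower. Among the 3 tested genes of the sensor adaptor list, which also holds a DNA sensor, 1 was higher and 2 lower. Of 4 feedback inhibitors 3 were higher and 1 lower. Socs1 and Socs3, which shut down cytokine receptor signalling, were lower in M than in GM at steady state by 2.43 and 3.17 on TC dishes and higher after LPS by 0.85 and 1.06.

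The interferon stimulated families outside the members were set beside them. On TC dishes at steady state 5 of 6 IFIT genes, 8 of 9 OAS genes and 8 of 9 IRG genes were higher in M than in GM, and 1 IRG gene was lower, against 28.9% higher and 32.6% lower among all tested genes. Of the 11 GBP genes, which encode interferon-induced GTPases with a strong dependence on interferon gamma, 2 were higher and 8 lower. The median log2 fold change was 4.46 for IFIT, 2.48 for OAS, 1.86 for IRG and -1.11 for GBP, beside 1.66 for the 48 members. The rise by LPS was smaller in M on TC dishes in 5 IFIT, 8 OAS and 7 IRG genes and larger in none, while it was larger in 7 GBP genes and smaller in none, against 17.8% smaller and 23.3% larger among all tested genes. On noTC dishes it was smaller in 5 IFIT, 7 OAS and 6 IRG genes and larger in 3 IRG and 8 GBP genes, against 16.9% and 19.3%.

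Some members had expected counts that were not whole numbers, as estimates for shared reads can be, and their values are less certain. These were Trim30a, Parp9, Dtx3l, Ifi204, Slfn5 and Slfn8 in all 16 libraries. Ifi205 and Phf11d had them in 15, Ifi203 and Phf11b in 13, and Mx1 and Mx2 in 9. Exons of Parp9 overlap those of Dtx3l, those of Ifi203 overlap Mndal, and those of Dhx58 and Slfn5 overlap antisense genes. Whether the library kit kept the strand was not given in the sources used here, so such pairs cannot be told apart. In the RefSeq gene order, where 46 of 48 members were matched, some members follow each other directly: Slfn8, Slfn2 and Slfn1, then Rsad2 and Cmpk2, then Phf11b and Phf11d, and Parp14, Dtx3l and Parp9. Members in such a run did not always move alike. At steady state Slfn8 was higher in M, Slfn2 was not called and Slfn1 was lower.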

How the data were processed

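RNA-seq libraries were made from 16 bulk BMDM samples, grouped by the sample labels. The deposited values are expected counts per gene, estimated by the authors. The submitters' processing notes name fastp 0.18.0, Bowtie2 2.2.8, HISAT2, StringTie 1.3.1, RSEM, DESeq2 and edgeR, with no role for each. The genome build was not given in the sources used here. Expected counts were rounded to whole numbers, genes with low counts were removed (filterByExpr), and TMM factors were applied. One edgeR 4.0.16 quasi-likelihood model over all 8 groups (with limma 3.58.1 and R 4.3.3) gave every contrast, with Benjamini-Hochberg adjustment over 12514 genes. The common biological coefficient of variation was 4.75%. Interactions compare 2 log2 responses.

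On simulated counts for GM-TC against GM-TC-LPS (12103 genes), 100 of 100 genes changed 2-fold and 100 of 100 changed 4-fold were recovered, with 9 false calls. Alternatives were DESeq2 1.42.0, other scalings, no filter, a replicate block, fewer libraries, a fold threshold, and subtraction of a share of other libraries' reads. Values per library were given for 16 members set by name, and for up to 3 members per direction with the largest fold change among those called without overlap. Slfn2 between growth factors was named because it was not called. The members and lists were chosen with earlier results of these data known. Comparisons that share a group share its libraries. One gene of the pathway lists is not reported here.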

Additional observations from a re-analysis of the deposited data

Results flagged for a closer look

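The results below were singled out because a response in one set of groups differed from the same response in another, by edgeR's test of the interaction. On TC dishes the LPS response was larger in M than in GM in 6 members and smaller in 36. The log2 difference of the responses was 1.16 for Slfn1, 0.623 for Pml and 0.557 for Slfn2, and it was -3.66 for Isg15, -2.79 for Cmpk2 and -2.73 for Ifi44. On noTC dishes it was larger in M in 3 members and smaller in 36. The difference was 0.887 for Ifi205, 0.417 for Slfn2 and 0.36 for Pml, and it was -3.06 for Isg15, -2.435 for Ifi44 and -2.31 for Rtp4. Between dishes in GM the LPS response was larger on noTC in 0 members and smaller in 5, with -3.12 for Ifi205, -2.23 for Rsad2 and -2.15 for Cmpk2. At an unadjusted p under 0.05, 1 member had a larger response. With the share of other libraries' reads subtracted, none of these 5 was called, and Ifi205 (-0.96), Rsad2 (0.0054) and Cmpk2 (-0.028) moved towards 0, while the 0.887 of Ifi205 between growth factors on noTC turned to -0.06. Between dishes in M it was larger on noTC in 0 members and smaller in 12, with -1.17 for Slfn1, -0.514 for Mx1 and -0.415 for Pml.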

How the results depend on the processing

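The LPS and growth factor counts of members kept their size under all scalings and tools tried, and the dish comparisons moved most. With scaling by library size alone, the median log2 fold change for LPS was 3.29 (TC) and 3.14 (noTC) in GM and 2.02 and 2.05 in M. For M against GM it was 1.97 on TC, 1.8 on noTC and 0.98 on noTC after LPS. For the difference of LPS responses between M and GM it was -1 on TC, with 3 members larger, and -0.855 on noTC. For the dish in M after LPS 2 members were higher and 11 lower (median -0.0626), and for the dish difference in the M response 1 was larger and 4 smaller (median -0.0942). Ifitm3 (-0.07041) and Daxx (-0.07223) reversed in the response difference on TC.

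With reads of other libraries subtracted, the median was 3.76 for LPS in GM-noTC, 1.63 for M against GM on noTC and -0.742 for the response difference on noTC. In GM at steady state 1 member was higher on noTC (median -0.0108), and in M after LPS 0 were higher. In the dish difference of the GM response 0 were smaller (median -0.0425). Rsad2 reversed between dishes in GM (-0.05535) and M (-0.2676) and in the GM response (0.005445), and Ifi205 reversed in the response difference on noTC (-0.06236). These reversals follow from the subtraction itself.

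With only the libraries of a comparison, the median for LPS in M-TC was 2.79, and between dishes 4 members were higher and 1 lower in GM, 1 higher and 7 lower in GM after LPS, and 8 lower in M, with 1 larger in the M response. Without the filter, 1 was higher and 3 lower between dishes in GM after LPS, and 9 were smaller in the GM response. DESeq2 on all 16 libraries gave 1 higher between dishes in GM after LPS, and both DESeq2 and its size factors gave 5 higher in M and 0 higher in M after LPS. At 2-fold and an unadjusted p, M exceeded GM in 17 members on TC and 16 on noTC after LPS with 0 lower, and 0 were lower on noTC at steady state. Between dishes 5 were higher and 0 lower in GM, 0 lower in GM after LPS, 1 higher and 0 lower in M, and 0 and 0 in M after LPS. The response difference was larger in 1 and smaller in 16 on TC, larger in 0 and smaller in 10 on noTC, and the M response was smaller on noTC in 1.

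Leaving out each library in turn gave medians of 3.72 to 3.84 for LPS in GM-TC, 2.77 to 2.92 in M-TC and 2.72 to 2.86 in M-noTC. For M against GM they were 1.46 to 1.56 on noTC and 0.839 to 0.932 on noTC after LPS, and for the response difference -0.746 to -0.559 on TC and -0.667 to -0.562 on noTC (1 to 3 larger). Between dishes in GM 4 to 13 were higher and 1 to 3 lower (median 0.0912 to 0.164), and 0 to 1 lower after LPS. In M 3 to 6 were higher and 1 to 3 lower, and after LPS 0 to 1 higher and 8 to 17 lower (median -0.188 to -0.101). The dish difference was smaller in 4 to 11 members in GM (0 to 1 larger) and in 3 to 12 in M. A group with 1 library left was assumed to vary like the others.

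Correlations of same-numbered deviations lay between -0.0814 and 0.174, the highest for the dishes in M after LPS. With 2 libraries per group they cannot show whether same-numbered samples shared an animal or a preparation. With the replicate block, 9 members were higher between dishes in GM, 11 in M, and 20 lower in M after LPS. For named genes 283 of 286 values kept their call and 3 became called. The cause of the other changes was not tested.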
